A study of Mus musculus with 10 samples.

Results

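Rab GTPases are small switch proteins that direct vesicles between membranes. The genes described here belong to families known for proteins that switch Rabs off or on. Earlier results of these data, the change of Tbc1d8 among them, were known when this family was taken up. The genes were listed by symbol: every gene with a TBC1D or DENND name, together with Evi5, Evi5l, Rabgap1, Rabgap1l, Rab3gap1, Rab3gap2 and Rabgef1. This gave 53 of the 19938 genes measured, namely 30 TBC1D genes, 16 DENND genes and 7 with other names, and a mouse reference gene table held no further protein-coding gene that met the rule. Granulosa cells, the somatic cells that line the ovarian follicle, were profiled on whole-transcript microarrays to ask which transcripts depended on the progesterone receptor when ovulation had been triggered. PRKO mice carried a lacZ insertion (the PRlacZ knock-in) in both copies of Pgr, the receptor gene, which disrupts both of its isoforms. The controls, PR+/-, carried the same insertion in 1 copy, so no animal without the insertion was analysed here. All mice were prepubertal, 21 to 23 days old, and received 5 IU of equine chorionic gonadotropin to grow follicles and, 44 to 47 h later, human chorionic gonadotropin (hCG, 5 IU) to start ovulation. Cells were released by puncturing antral follicles 8 h after hCG, and each of the 5 pools per genotype held cells of 3 animals, 15 animals per genotype in all.

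A Rab protein bound to GTP sits on a membrane and recruits the machinery that moves, tethers or fuses a vesicle. Many TBC domain proteins are GTPase-activating proteins (GAPs), which speed up GTP hydrolysis and so turn a Rab off. Many DENN domain proteins are guanine nucleotide exchange factors (GEFs), which load a Rab with GTP and so turn it on. Neither activity was measured here. Granulosa cells of an ovulating follicle secrete proteases and matrix proteins and take up lipoproteins and receptors, all of which pass through compartments marked by Rab proteins.

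The 10 arrays had medians between 6.48 and 6.55 on the log2 scale and pairwise correlations between 0.973 and 0.992. Background was taken from 1027 olfactory receptor genes, of which 95% lay below 5.86, and genes under that level were called dim. Of the 53 genes, 5 had means under that level in both genotypes (Tbc1d2, Tbc1d21, Tbc1d30, Dennd1c and Dennd2d). Of 8 granulosa markers, 0 passed the threshold in limma, while 6 had an unadjusted p under 0.05, beside 13% of all genes. Of these 6, 5 had higher means in PRKO, with log2 differences (PRKO minus PR+/-) of 0.60 for Inhba, 0.56 for Hsd17b1, 0.33 for Amhr2, 0.30 for Foxl2 and 0.24 for Inha, and Fshr had a lower one (-0.49). Nr5a2 and Gja1 stood at 0.04 and 0.11. The mean level over the 8 ranged from 10.60 to 10.96 in the PR+/- pools and from 10.54 to 11.29 in the PRKO pools, and its part in the results was not tested. Of 29 markers of other cell types (theca, oocyte, leukocyte, endothelium, smooth muscle and stroma, erythroid), 0 passed in limma and 2 had an unadjusted p under 0.05. These were the endothelial Kdr, with a log2 difference of 0.41, and the dim leukocyte marker Ptprc, with -0.21. Oocyte transcripts were present, with the mean over 6 markers between 8.47 and 9.20 in the PR+/- pools and between 8.41 and 9.31 in the PRKO pools. All 6 oocyte markers (-0.24 to -0.07) and all 7 leukocyte markers (-0.21 to -0.01) lay below 0, beside 55.2% of all genes. Of 6 smooth muscle and stroma markers, 1 lay below 0. The part of other cell types in the results was not tested. Pgr itself, read by 1 probe set whose place relative to lacZ the sources used here do not give, read 6.91 ± 0.70 in the controls and 6.45 ± 0.32 in PRKO (SD, 5 pools per genotype, limma adjusted p = 0.527), so it does not check the labels.

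Among the 53 genes, Tbc1d8 alone was lower past the threshold in PRKO and Tbc1d31 alone was higher. Tbc1d8 was 3.32-fold lower, and Tbc1d31 was 1.35-fold higher. The other 51 lay within a log2 difference of -0.28 to 0.26 and did not pass. The 2 calls are 3.77% of the 53, beside 2.46% of all 19938 genes tested with limma at a Benjamini-Hochberg adjusted p under 0.05. By direction, 1.89% of the 53 were lower beside 1.71% of all genes, and 1.89% were higher beside 0.752% of all genes. At an unadjusted p under 0.05 the share was 15.1% (8 of 53) beside 13% of all genes, so that the family as a whole was near the background. The median log2 difference (PRKO minus PR+/-) was -0.01 over the 53 genes and -0.02 over all genes. Of the 53, 31 lay below 0 (58.5%, beside 55.2% of all genes).

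**Figure D1:**
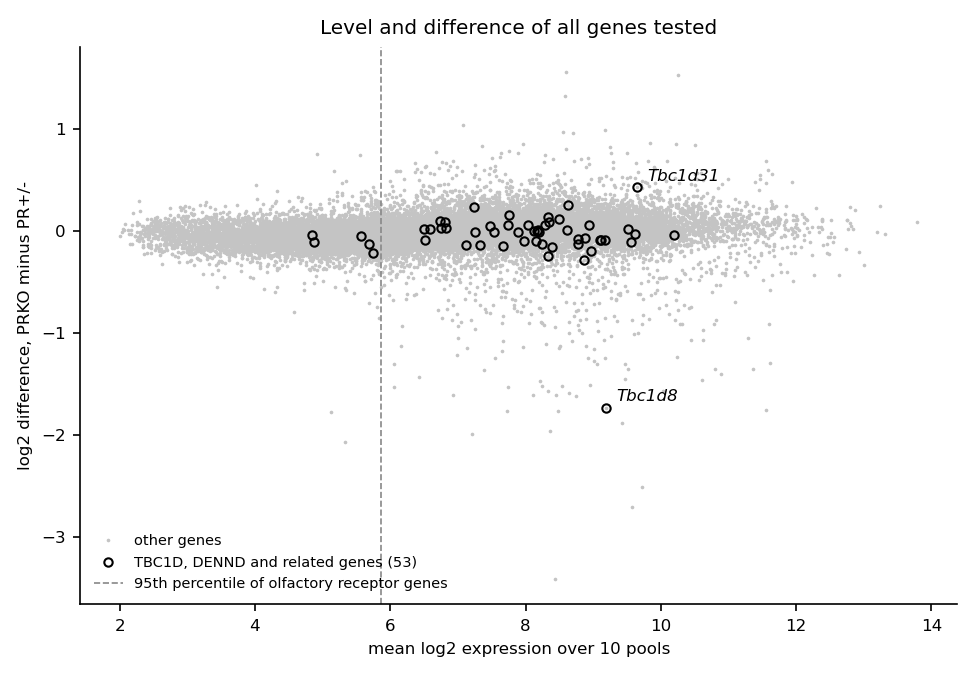
Mean log2 expression over the 10 pools (horizontal axis) against the log2 difference, PRKO minus PR+/- (vertical axis), for all 19938 genes, with the 53 Rab regulator genes as open circles and the background level of 5.86 as a dashed line. Tbc1d8 sits at -1.73, apart from the other circles, and Tbc1d31 at 0.43.

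Tbc1d8 encodes a TBC protein with GRAM domains, lipid-binding modules near its amino end, and was first described as a vascular Rab GAP. Its log2 expression was 10.08, 9.86, 10.24, 10.13 and 10 in PR+/- pools 1 to 5. In PRKO pools 1 to 5 it was 8.35, 8.57, 8.32, 8.12 and 8.28. Every control pool lay above every PRKO pool, and the highest PRKO pool was 1.29 below the lowest control pool. The control mean was 10.06 ± 0.14 and the PRKO mean 8.33 ± 0.16 (SD, n = 5 pools each). The log2 difference was -1.73 (SE 0.09, 95% interval -1.93 to -1.53, limma adjusted p = 7.54e-08). PRKO cells therefore held 30.1% of the control signal, and the interval allows a fall of between 2.89-fold and 3.81-fold. In a pooled cell sample, fewer cells that make a transcript and less transcript per cell cannot be told apart. By size this was the 12th largest fall among all 19938 genes, and by p the 9th smallest. PRKO pools still read well above the background level of 5.86. With each pool left out in turn, the log2 difference stayed between -1.79 and -1.68 and the highest adjusted p was 9.13e-07.

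**Figure D2:**
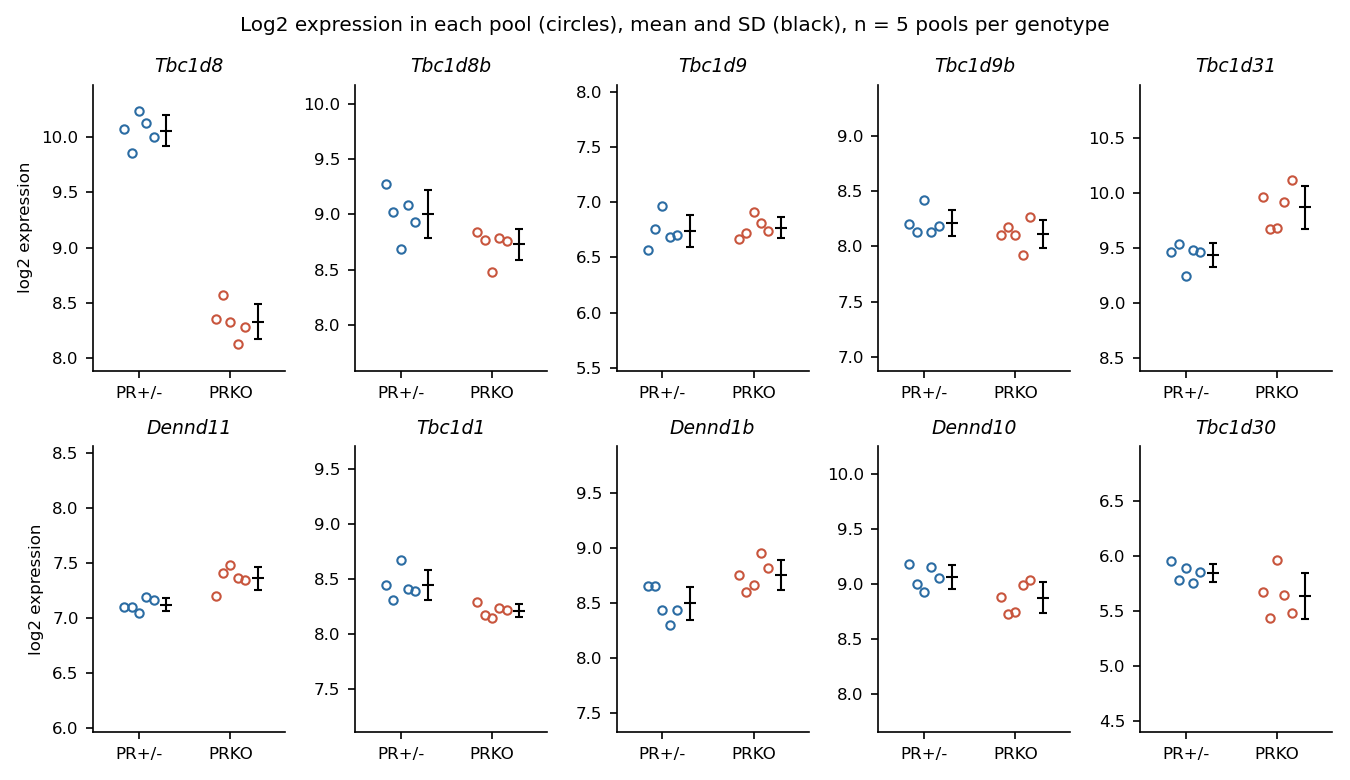
Log2 expression of 10 genes in each pool (circles), with the mean and SD in black, for 5 PR+/- and 5 PRKO pools, with every panel spanning the same height. Only Tbc1d8 shows a wide gap between the genotypes (1.29), and the Tbc1d31 groups are 0.13 apart.

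The start region of Tbc1d8 is shown because this gene carries the main difference, beside that of its close relative Tbc1d8b, whose difference was far smaller. Sequences are from RefSeq (GRCm38.p6), 250 bases before to 50 after the annotated start, at chr1:39478706-39479005 on the minus strand for Tbc1d8 (the first of 2 listed starts) and chrX:139684746-139685045 on the plus strand for Tbc1d8b. Both read 5′ to 3′ in the direction of the gene, and capitals mark the GC box, GGGCGG on either strand.
Tbc1d8: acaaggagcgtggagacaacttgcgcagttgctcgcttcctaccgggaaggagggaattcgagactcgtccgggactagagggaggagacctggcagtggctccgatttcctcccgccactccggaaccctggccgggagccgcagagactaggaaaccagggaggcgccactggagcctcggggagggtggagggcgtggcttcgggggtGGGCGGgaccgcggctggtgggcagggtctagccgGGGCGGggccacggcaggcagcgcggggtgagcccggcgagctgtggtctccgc
Tbc1d8b: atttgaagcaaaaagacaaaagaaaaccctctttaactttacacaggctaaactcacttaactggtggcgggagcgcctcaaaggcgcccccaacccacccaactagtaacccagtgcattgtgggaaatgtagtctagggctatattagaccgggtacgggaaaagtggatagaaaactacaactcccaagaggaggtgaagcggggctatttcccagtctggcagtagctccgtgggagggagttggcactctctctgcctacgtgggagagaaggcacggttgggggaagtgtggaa
The Tbc1d8 window held 2 GC boxes, 27 CpG dinucleotides and 70.0% G or C, against 0 GC boxes, 9 CpG and 51.3% in Tbc1d8b. A GC box was found in 35.7% of all 32851 promoter windows and in 67.7% of 62 windows of 45 of the 53 genes. The half-site of steroid receptors of the progesterone and glucocorticoid class, TGTTCT on either strand, was in neither window, nor was the full element GNACANNNTGTNC, which reads the same on both strands. Over all windows, 19% held the half-site and 0.475% the full element. Among the windows of the 45 genes, 11.3% held the half-site, in 7 genes (Dennd1b, Dennd2c, Dennd4c, Tbc1d1, Tbc1d4, Tbc1d15 and Tbc1d22a), and none of the 62 held the full element. These counts say only which letters stand in these windows.

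The nearest relatives of Tbc1d8, which share its GRAM domains, did not pass. Tbc1d8b read 9.28, 9.02, 8.69, 9.09 and 8.93 in PR+/- pools 1 to 5 and 8.84, 8.77, 8.48, 8.79 and 8.76 in PRKO pools 1 to 5. The groups overlapped, since PR+/- pool 3 lay below 4 of the PRKO pools, and PRKO pool 3 lay apart from the other PRKO pools. Its log2 difference was -0.28 (SE 0.10, limma adjusted p = 0.260). Tbc1d9 read 6.57, 6.76, 6.97, 6.69 and 6.70 in PR+/- and 6.67, 6.72, 6.91, 6.81 and 6.74 in PRKO, so that the PRKO pools lay inside the control range (difference 0.03, adjusted p = 0.923). Tbc1d9b read 8.20, 8.13, 8.42, 8.13 and 8.19 in PR+/- and 8.10, 8.18, 8.10, 7.92 and 8.27 in PRKO, again with overlap (difference -0.10, adjusted p = 0.657).

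Whether closely related genes differed in their response was tested on the difference between both genes within each pool, over 17 paralog pairs, with a two-sided exact permutation test over 252 assignments of the pools. Tbc1d8 differed from each of its 3 relatives. Its log2 difference was lower by 1.46 than that of Tbc1d8b (within-pool difference -1.46), and the values against Tbc1d9 and Tbc1d9b were -1.76 and -1.63. In each of these 3 pairs the exact p was 0.00794, the smallest that permutations can give here. The Benjamini-Hochberg adjusted p over the 17 pairs was 0.0450, which passes only because 3 pairs tie at that smallest p. All 3 share Tbc1d8, whose fall was known when the pairs were chosen, so they are not independent support for it. The other 14 pairs did not pass (adjusted p from 0.270 for Dennd1a against Dennd1b to 0.786 for Tbc1d10a against Tbc1d10b).

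**Figure D3:**
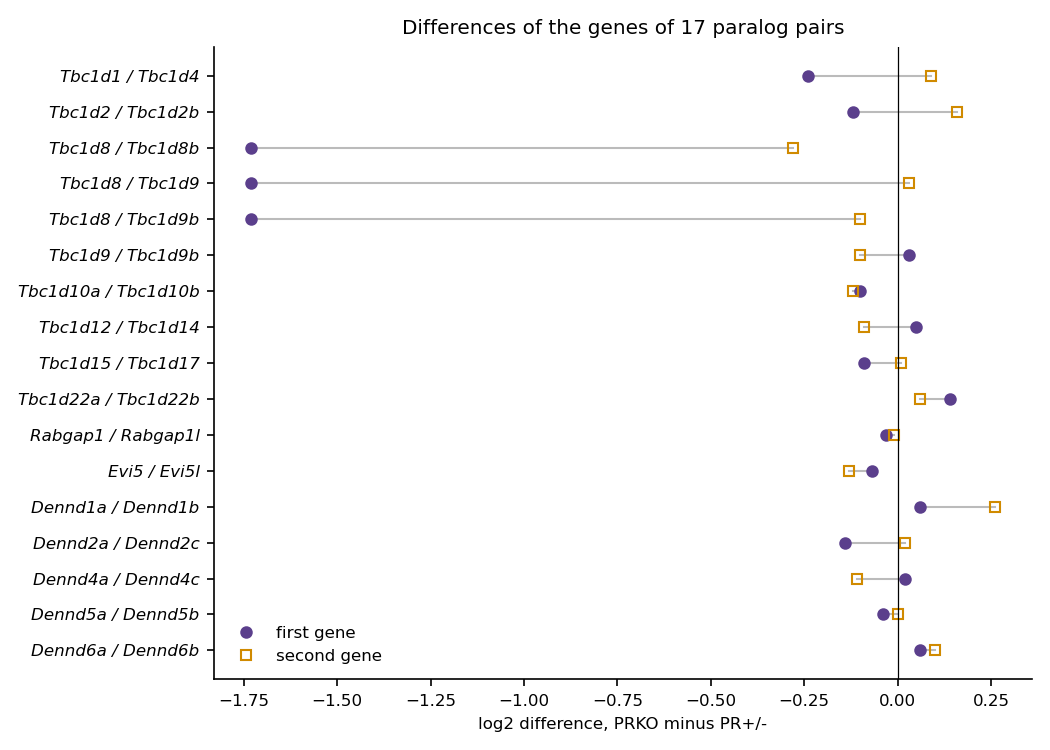
Log2 difference, PRKO minus PR+/- (horizontal axis), of the first gene (filled circle) and the second gene (open square) of 17 paralog pairs, joined by a line. The 3 long lines belong to the pairs with Tbc1d8, at -1.73 against -0.28, 0.03 and -0.10.

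Tbc1d31 encodes a TBC protein with WD repeats found at the centrosome, also known as Wdr67. It read 9.46, 9.54, 9.25, 9.48 and 9.46 in PR+/- pools 1 to 5 and 9.96, 9.67, 9.68, 9.92 and 10.12 in PRKO pools 1 to 5. All PRKO pools lay above all control pools, by a gap of 0.13. The means were 9.44 ± 0.11 and 9.87 ± 0.19 (SD, n = 5 pools each), which differ by 0.43 (SE 0.09, 95% interval 0.23 to 0.63, limma adjusted p = 0.0237). The call was lost without any 1 of 7 pools (PR+/- 1, 3, 4 or 5, PRKO 1, 4 or 5), with an adjusted p of up to 0.0717, while the difference stayed between 0.37 and 0.48. Tbc1d30 and Tbc1d32, the genes grouped with it here under centrosome and cilium, lay on the other side of 0 and did not pass. The groups by role were set by hand, 1 role per gene, so this does not speak for every TBC protein of these structures. Tbc1d30, a GAP for Rab8 at the cilium, was dim in both genotypes, with 5.95, 5.78, 5.89, 5.75 and 5.85 in PR+/- and 5.67, 5.43, 5.96, 5.64 and 5.48 in PRKO (difference -0.21, adjusted p = 0.371). The highest single value was that of PRKO pool 3, so the groups overlapped. Tbc1d32, which is needed for ciliary Hedgehog signalling, had a difference of -0.13 (adjusted p = 0.531).

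**Figure D4:**
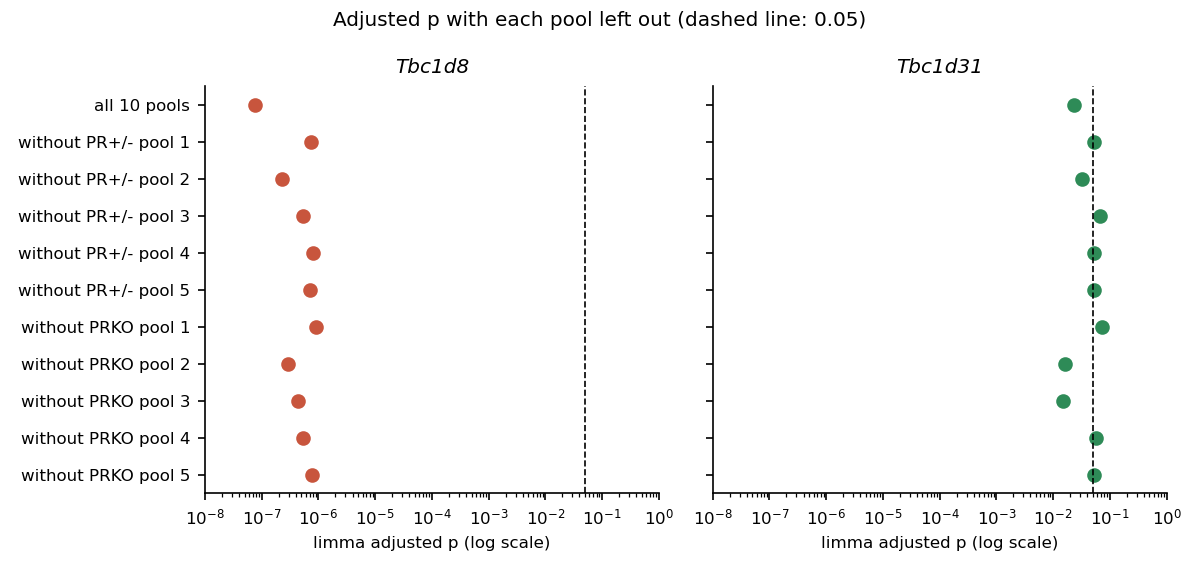
Limma adjusted p (horizontal axis, log scale) of Tbc1d8 (left) and Tbc1d31 (right) with all 10 pools and with each pool left out; the dashed line is 0.05. The points of Tbc1d8 lie at 9.13e-07 or below, and those of Tbc1d31 lie on both sides of the line, up to 0.0717.

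Tbc1d1 and Tbc1d4, the GAPs that insulin and exercise signals inhibit to let glucose transporters reach the surface of muscle and fat cells, did not pass. Tbc1d1 read 8.44, 8.31, 8.67, 8.41 and 8.39 in PR+/- pools 1 to 5 and 8.29, 8.17, 8.14, 8.23 and 8.22 in PRKO pools 1 to 5. Here the groups did not overlap, by a gap of 0.03, but the log2 difference of -0.24 (95% interval -0.40 to -0.08) had an adjusted p of 0.152. Tbc1d4 had a difference of 0.09 (interval -0.15 to 0.33), and the pair did not differ from each other past the threshold (within-pool difference -0.33, exact p = 0.0873, adjusted p = 0.292).

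The TBC proteins of endosomes, lysosomes and autophagy numbered 9, none of which passed in limma (0 at an unadjusted p under 0.05), with log2 differences from -0.12 to 0.16. Tbc1d5, a GAP for Rab7 that binds the retromer coat, stood at -0.01, and Tbc1d15, another GAP for Rab7, at -0.09. Tbc1d2 (also called Armus), which links Rac1 to Rab7, stood at -0.12 and was dim in both genotypes, and its relative Tbc1d2b stood at 0.16. The autophagy proteins Tbc1d14 and Tbc1d25, the latter a GAP for Rab33b, stood at -0.09 and 0.06. Tbc1d12, Tbc1d16 and Tbc1d17 lay between 0.01 and 0.05.

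TBC proteins linked to Rab35, which governs recycling from endosomes to the cell surface, numbered 5 and gave no call in limma (0 at an unadjusted p under 0.05). Tbc1d10a, Tbc1d10b and Tbc1d10c had differences of -0.10, -0.12 and -0.09. Tbc1d13 read 8.39 to 8.50 in PR+/- and 8.50 to 8.67 in PRKO, without overlap before rounding but with a difference of only 0.12 (adjusted p = 0.469). Tbc1d24, in which mutations cause epilepsy in people, had a difference of 0.00 (interval -0.19 to 0.19). In the early secretory pathway, Tbc1d20, a GAP for Rab1 at the endoplasmic reticulum, stood at 0.09, the Golgi proteins Tbc1d22a and Tbc1d22b at 0.14 and 0.06, and the golgin-binding Tbc1d23 at -0.08. None of these 4 passed in limma (0 at an unadjusted p under 0.05).

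Evi5, a Rab11-binding protein of cell division, stood at -0.07, Evi5l at -0.13, Rabgap1 at -0.03 and Rabgap1l at -0.01. Tbc1d7, the third subunit of the TSC complex that restrains mTOR, stood at 0.02, Tbc1d19 at 0.01 and the dim Tbc1d21, a testis protein, at -0.04. Rab3gap1 and Rab3gap2 form a complex that is a GAP for Rab3 and an exchange factor for Rab18, and they stood at -0.09 and -0.12. Rabgef1 (Rabex-5), the exchange factor of early endosomal Rab5, stood at -0.15 (interval -0.31 to 0.02). None of these 10 genes passed in limma (adjusted p from 0.455 to 0.982).

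None of the 16 DENND genes passed in limma, beside 2.46% of all genes. At an unadjusted p under 0.05 there were 3 (Dennd11, Dennd1b and Dennd10), beside 13% of all genes. The median log2 difference over the 16 was -0.01. Dennd11, also known as Lchn, read 7.10, 7.10, 7.04, 7.19 and 7.16 in PR+/- pools 1 to 5 and 7.20, 7.41, 7.48, 7.36 and 7.34 in PRKO pools 1 to 5. The groups were separated by only 0.01, and the log2 difference was 0.24 (SE 0.07, limma adjusted p = 0.103). Dennd1b, an exchange factor for Rab35, read 8.65, 8.65, 8.44, 8.30 and 8.44 in PR+/- and 8.75, 8.60, 8.66, 8.95 and 8.82 in PRKO. PRKO pool 2 lay below PR+/- pools 1 and 2, and the difference was 0.26 (adjusted p = 0.212). Dennd10 read 9.18, 9.00, 8.93, 9.16 and 9.06 in PR+/- and 8.88, 8.73, 8.75, 8.99 and 9.04 in PRKO, with overlap and a difference of -0.19 (adjusted p = 0.347).

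The remaining DENND genes are taken here by the Rab protein they are known to activate. Dennd1a and Dennd1c, which like Dennd1b act on Rab35, had differences of 0.06 and -0.05, the latter dim in both genotypes. For Rab9, Dennd2a, Dennd2c and the dim Dennd2d stood at -0.14, 0.02 and -0.11. Dennd3, which acts on Rab12, stood at -0.01. For Rab10, Dennd4a, Dennd4b and Dennd4c stood at 0.02, -0.01 and -0.11. Dennd5a, which acts on Rab39 and binds Rab6, stood at -0.04 (interval -0.18 to 0.10), and Dennd5b had an interval of -0.15 to 0.14. For Rab14, Dennd6a and Dennd6b stood at 0.06 and 0.10.

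**Figure D5:**
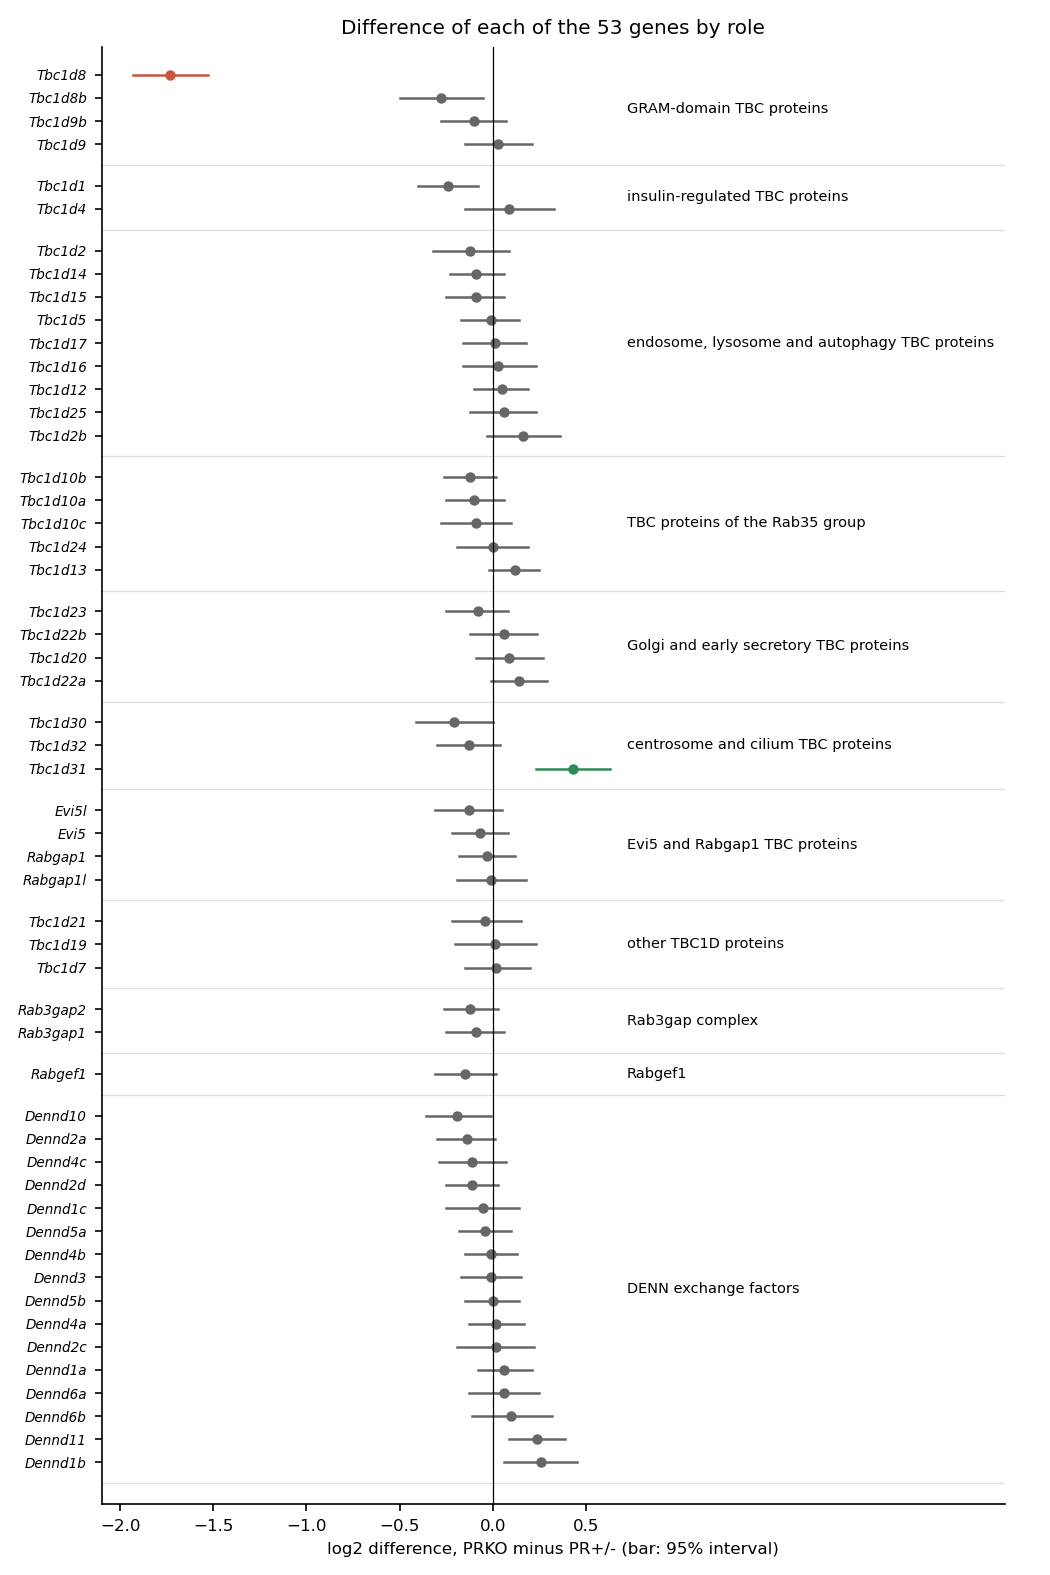
Log2 difference, PRKO minus PR+/- (points), with its 95% interval (bars) for each of the 53 genes, grouped by role. Tbc1d8 (red) at -1.73 and Tbc1d31 (green) at 0.43 passed the threshold, and the intervals of the other 51 (grey) lie between -0.50 and 0.45.

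A p above the threshold does not show that a gene was equal in both genotypes, but its interval bounds the difference. For all 51 genes that did not pass, the 95% interval lay inside a change of 1.5-fold in either direction, and the median interval reached 0.17 on the log2 scale to either side. The median SD of the pools was 0.11 over the 53 genes and 0.13 over all genes. The pools of both genotypes did not overlap in 5 of the 53 (9.43%), Tbc1d8, Tbc1d31, Tbc1d1, Dennd11 and Tbc1d13, beside 4.42% of all genes. Tbc1d8 lies on chromosome 1 and Tbc1d31 on chromosome 15, both away from Pgr on chromosome 9, where Dennd4a (0.02), Tbc1d2b (0.16) and Tbc1d21 (-0.04) also lie. Whether position bears on the differences was not tested.

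More than 1 probe set was present for 4 of the genes, and the brightest was used. The 9 probe sets of Dennd4a gave differences from -0.08 to 0.17, and the 2 of Tbc1d5 gave -0.01 and 0.01. A dim second probe set of Dennd11 (mean 2.49) gave 0.13 against 0.24 for the one used. The dimmer probe set of Dennd5b gave -0.23 (mean 6.85, adjusted p = 0.363 over all probe sets). Tbc1d8 and Tbc1d31 were each read by 1 probe set (10354168 and 10424221).

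The Rab proteins themselves showed no call. Of 59 measured Rab genes, 0 passed in limma, beside 2.46% of all genes, a share so low that 0 of 59 says little. At an unadjusted p under 0.05 there were 3, beside 13% of all genes. The median log2 difference over the 59 was 0.01, and all 59 intervals lay inside a change of 1.5-fold. The 3 with the smallest p were Rab3a, a Rab of regulated exocytosis (0.24, adjusted p = 0.147), the dim Rab17 (-0.20, adjusted p = 0.254) and Rab33b (0.20, adjusted p = 0.320). Of the partners of DENND proteins above, Rab35, Rab10, Rab14 and Rab12 stood at -0.02, 0.01, 0.07 and 0.07. Rab9 and Rab9b stood at 0.03 and -0.13, the dim Rab39 and Rab39b at -0.08 and 0.05, and Rab6a and Rab6b at 0.11 and 0.04.

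Other regulators of the Rab cycle gave no call either, but with 2.46% of all genes called, lists this short say little. Counts at an unadjusted p under 0.05 stand beside 13% of all genes. Among 6 other TBC domain genes, 0 passed in limma (2 at an unadjusted p under 0.05), with Grtp1 at 0.28, Sgsm2 at 0.19 and Usp6nl at 0.09. Among 20 measured exchange factors whose symbols did not meet the rule, 0 passed (1 at an unadjusted p under 0.05). They were set apart by symbol and not by protein domain, and Madd, Sbf1 and Sbf2 are among them. Rin2, which acts on Rab5, stood at 0.23, Ric1, which acts on Rab6, at -0.14 and Rab3ip (Rabin8), which acts on Rab8, at -0.14. Among 6 measured genes of Rab prenylation and recycling, 0 passed (3 at an unadjusted p under 0.05), with the escort protein Chml at 0.26, the prenyltransferase subunit Rabggtb at 0.23 and Rabac1 at 0.21.

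Of 27 measured Rab effectors, the proteins that active Rabs recruit, Rab11fip1 alone passed, as lower. Rab11fip1 (Rab coupling protein) binds Rab11 and returns receptors from recycling endosomes to the cell surface. It read 7.87, 7.93, 7.70, 7.97 and 7.92 in PR+/- pools 1 to 5 and 7.07, 7.21, 7.0, 6.97 and 7.16 in PRKO pools 1 to 5. The groups were 0.50 apart, and the log2 difference was -0.80 (SE 0.07, 95% interval -0.96 to -0.64, limma adjusted p = 2.06e-05), a 1.74-fold fall. This 1 call among 27 stands beside 1.71% of all genes called lower. The median over the 27 effectors was -0.04, beside -0.02 over all genes, and 22 of the 27 lay below 0 (81.5%, beside 55.2% of all genes). The effector list was chosen with earlier results of these data known, so these shares describe the list and are not an independent test. Ehbp1, Rabep2 and Plekhm1, next by p, stood at -0.23, 0.13 and -0.13 (adjusted p = 0.183, 0.438 and 0.532).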

How the data were processed

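The authors deposited expression values on a log2 scale, a base inferred from their range (1.45 to 14.4). The submitters' processing notes name Partek, while background correction, normalization and summarization are steps not given in the sources used. Of 35557 probe sets, 21789 carried 1 gene symbol, 1621 several and 12147 none. For each gene the probe set with the highest mean was kept. A GRCm38.p6 gene table, matched by Entrez ID (21698 matched, 0 symbols differed), gave the chromosomes.

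Genotypes were compared by limma 3.58.1, run in R 4.3.3 (empirical Bayes, equal weights, no block), adjusted over all 19938 genes, with a threshold of 0.05 and 95% intervals. Limma was tested on simulated data. Precision is limited by the number of pools, among other things, and arrays have no read depth. The genes, lists, pairs and tests were chosen with earlier results of these data known. Pool values are given for called genes, their paralogs and the 6 next by p. Python 3.11.15 was used for permutations and figures.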

Additional observations from a re-analysis of the deposited data

Results flagged for a closer look

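In 8 of the 106 groups of 5 pools (53 genes, 2 genotypes), 1 pool lay far from the others by Dixon's criterion, which chance alone meets in about 1 in 20 groups (5.3 of 106). Among the controls, PR+/- pool 5 was low for Dennd6b (6.25, the next at 6.75), PR+/- pool 3 was low for Rabgap1l (7.98, the next at 8.24) and high for Tbc1d9b (8.42, the next at 8.20), and PR+/- pool 2 was low for Tbc1d10b (8.24, the next at 8.32). Among the PRKO pools, pool 5 was high for Dennd6a (9.27, the next at 8.95), pool 4 was high for Rabgap1 (9.77, the next at 9.59) and for Tbc1d23 (8.99, the next at 8.71), and pool 3 was low for Tbc1d8b (8.48, the next at 8.76). No pool was marked for Tbc1d8 or Tbc1d31, and none of the 8 marked values belongs to a gene that passed the threshold.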

How the results depend on the processing

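The fall of Tbc1d8 kept its direction and its call under quantile normalization, median centring, array weights, a robust prior, a replicate block, averaged probe sets, an intensity trend and removal of genes below the 30th percentile (log2 difference -1.75 to -1.72, highest adjusted p 1.16e-05), and without each pool in turn (-1.79 to -1.68). The count of Rab regulator genes lower in PRKO was 1 in each of these and at an adjusted p under 0.01. The count of those higher was 1 under the same 8 settings, 0 at an adjusted p under 0.01, and between 0 and 1 without each pool. The Tbc1d31 difference was 0.42 to 0.43 under the 8 settings (adjusted p 0.0108 to 0.0412), and 0.37 to 0.48 without each pool (0.0150 to 0.0717). A smaller sample enters each of those last fits. Over all genes, 491 were called, against 258 at an adjusted p under 0.01, 472 to 598 under the 8 settings, and 360 to 488 without each pool. Pools of one number were not treated as pairs, since the correlation of their deviations ranged from -0.103 to 0.317. With the replicate number as a block the differences were -1.73 for Tbc1d8 and 0.43 for Tbc1d31, 529 genes were called, and no call among the Rab regulators changed. Between 3 and 4 paralog pairs passed without each pool, a count that says nothing of stability because the 3 pairs with Tbc1d8 tie at the smallest p that permutations can give. Without each pool, the within-pool difference of Tbc1d8 was -1.52 to -1.33 against Tbc1d8b, -1.84 to -1.70 against Tbc1d9 and -1.67 to -1.58 against Tbc1d9b. Rab11fip1, added after its value was seen, stood between -0.84 and -0.77 without each pool, with an adjusted p of up to 0.000146. No scaling moved the median of all genes by over 0.1 on the log2 scale. Signal over background limits the 5 dim genes.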
